A study of Mus musculus with 12 samples.

Results

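Glutamate is the main excitatory transmitter of the brain, and 33 genes of its receptors, transporters and metabolism were followed here in ischemic and sham-operated mouse hemispheres. They comprised subunits of the ion channel receptors (AMPA, kainate, NMDA and delta types), G protein-coupled metabotropic receptors, carriers of the plasma membrane and of synaptic vesicles, and enzymes that make or break down glutamine. Members were the rows of the count table whose gene symbol was on this list, and all 33 of 33 were found among 39756 genes. Of these, 32 passed the filter on low counts and were among the 17558 genes tested; Grm6, a receptor known from the retina, had 0 to 2 counts in every mouse and was not.

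At an excitatory synapse, vesicular carriers load glutamate into vesicles, released glutamate opens AMPA and NMDA receptors, and metabotropic receptors tune release and excitability. Astrocytes then take up most of the transmitter through membrane carriers and turn it into glutamine, which neurons convert back to glutamate. Loss of this uptake and overactivation of NMDA receptors are textbook features of ischemic brain injury.

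RNA sequencing of brain hemispheres, ischemic except in sham-operated mice, was available for 12 C57BL/6J mice in 3 groups of 4. Sham mice had sham surgery, Vehicle mice had ischemia-reperfusion (I/R) by transient middle cerebral artery occlusion (tMCAO, a filament model of stroke) and saline, and LJP mice had the same I/R and Laminaria japonica polysaccharide, a brown seaweed extract. The methods describe daily dosing into the stomach that began before surgery and continued after it. Sham and Vehicle mice there received saline on the same schedule. According to the methods all mice were young adult males and poly(A)+ RNA was sequenced, and every sample carries the same batch label; the dose and the time of tissue collection of the sequenced mice are not given in the labels. Whole hemispheres hold infarcted and spared tissue together, so fewer cells of a type and less RNA per cell cannot be told apart.

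Total counts per mouse ranged from 17960353 to 22216315. Vehicle mice 1 and 2 stood apart from every other mouse on the first principal component (60.3% of the variance), with scores of 69.6 and 113 against 13.7 and 27.5 in Vehicle mice 3 and 4, -15.2 to 20.7 in the LJP mice and -56.7 to -51.7 in the Sham mice. Differences between Vehicle and Sham are therefore also given without these mice for every member, and those between LJP and Vehicle for the members that stood apart. Levels below are in CPM, counts relative to the library's total after trimmed-mean (TMM) scaling. Errors of levels are SD over n = 4 mice, and errors of log2 differences are the SE of the fitted difference. Calls are edgeR quasi-likelihood tests with Benjamini-Hochberg adjusted p below 0.05 over all genes tested.

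To show what lies in front of members that behaved differently, the 250 bases before the annotated start are printed for 4 genes, taken from RefSeq on GRCm38.p6. Gria4 and Grm3 fell in Vehicle mice, whereas Slc1a3 and Slc17a7 were not called. Promoter windows were found for 23 of 33 members, and in 8 of them the window starts where the gene model of the count table starts and holds no annotated exon before that start. Each window is written 5′ to 3′ along its gene, and capitals mark the GC box letters GGGCGG or their reverse complement, overlapping matches included.
Gria4, chr9:4796235-4796484, minus strand: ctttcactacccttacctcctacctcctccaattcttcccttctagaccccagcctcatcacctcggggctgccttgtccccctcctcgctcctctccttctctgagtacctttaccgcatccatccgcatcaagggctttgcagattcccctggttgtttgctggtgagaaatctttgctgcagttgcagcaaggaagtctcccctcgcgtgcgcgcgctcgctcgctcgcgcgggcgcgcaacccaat
Grm3, chr5:9725353-9725602, minus strand: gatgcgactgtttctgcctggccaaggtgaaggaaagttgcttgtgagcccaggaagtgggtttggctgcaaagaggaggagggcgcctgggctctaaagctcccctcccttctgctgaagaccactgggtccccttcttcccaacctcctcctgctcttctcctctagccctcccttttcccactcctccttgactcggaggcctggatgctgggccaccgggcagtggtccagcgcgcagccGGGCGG
Slc1a3, chr15:8710808-8711057, minus strand: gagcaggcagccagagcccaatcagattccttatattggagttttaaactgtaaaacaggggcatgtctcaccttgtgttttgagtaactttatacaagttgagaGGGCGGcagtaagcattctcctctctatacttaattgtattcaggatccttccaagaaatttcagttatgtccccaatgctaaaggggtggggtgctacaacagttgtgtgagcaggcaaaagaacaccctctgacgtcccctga
Slc17a7, chr7:45163671-45163920, plus strand: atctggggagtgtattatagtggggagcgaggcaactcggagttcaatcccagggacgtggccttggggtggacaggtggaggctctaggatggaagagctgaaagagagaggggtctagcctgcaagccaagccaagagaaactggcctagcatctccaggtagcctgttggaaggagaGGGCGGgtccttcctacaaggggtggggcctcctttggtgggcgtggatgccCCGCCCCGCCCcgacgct
The letters GGGCGG, on either strand, were found 0 times in the Gria4 window, 1 time in those of Grm3 and Slc1a3, and 3 times in that of Slc17a7. They were present in 32.7% of all 32851 promoter windows of this length and in 15 of 28 member windows (53.6%). The 28 come from 23 members and include windows that start inside the gene model or hold exon bases. Whether the 2 shares differ was not tested. The 4 printed genes were picked from the 8 members whose window starts at the gene model. With 2 genes that fell and 2 not called, these windows cannot show whether the letters bear on the change. CG pairs numbered 16 and 8 in the windows of Gria4 and Grm3 and 2 and 9 in those of Slc1a3 and Slc17a7, against a median of 6 over all windows.

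Per kilobase of gene model, the members spanned a wide range in Sham mice. Glul, which encodes the astrocyte enzyme glutamine synthetase, was highest at 585 ± 18.0 CPM per kilobase. Slc17a7 (the vesicular carrier VGLUT1 of cortical neurons) followed at 527 ± 43.4, Slc1a2 (the astrocyte carrier GLT-1) at 224 ± 14.6, Grin1 (the NMDA subunit that every NMDA receptor needs) at 167 ± 4.32 and Slc1a3 (the astrocyte carrier GLAST) at 99.8 ± 3.41. The lowest tested member was Grin3b at 0.714 ± 0.0675 CPM per kilobase, 819-fold below Glul. These top members did not overlap with their next neighbour in the order over the 4 Sham mice, but 16 of the 32 neighbouring pairs did, including the run Gria2, Grin2b, Gria3 and Slc1a1 at 32.1, 29.7, 28.6 and 28.4 CPM per kilobase.

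**Figure D1:**
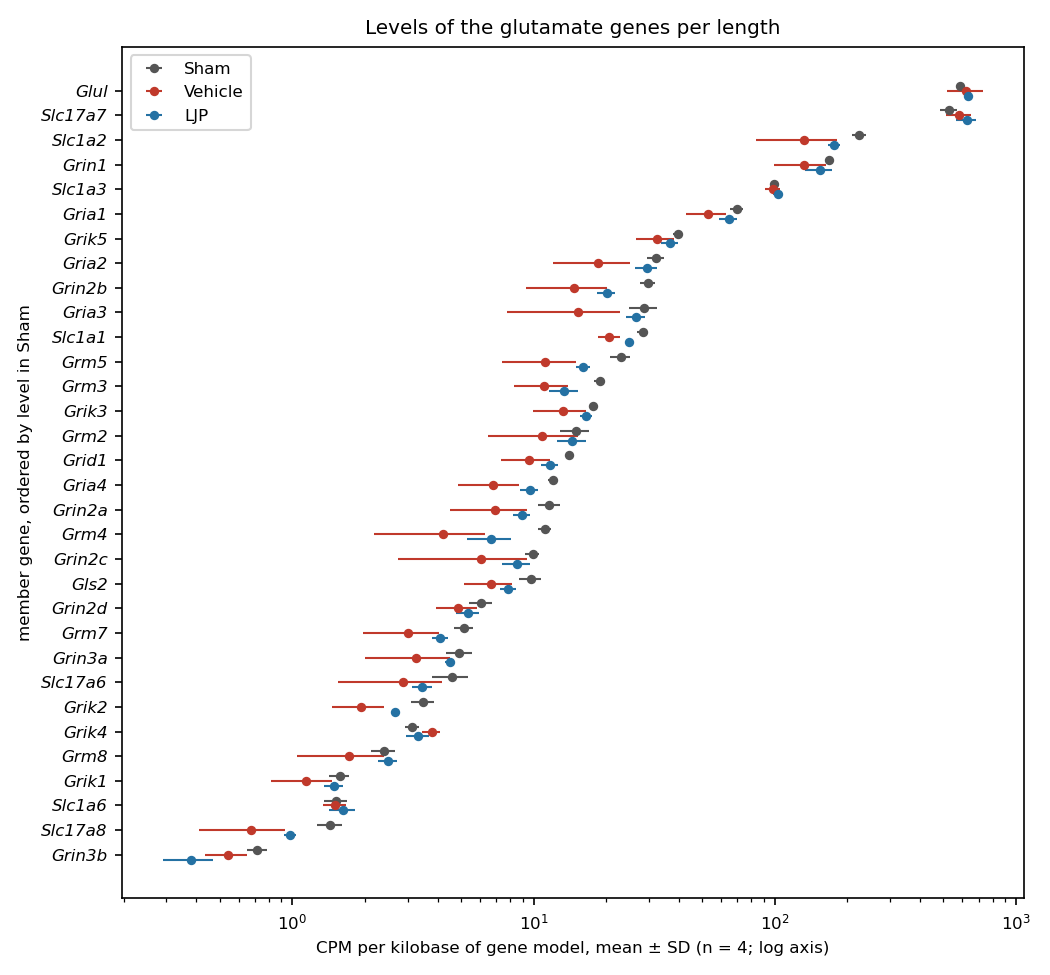
Level of each tested member in CPM per kilobase of gene model (log axis) as mean ± SD over 4 mice in Sham, Vehicle and LJP, ordered by the Sham level. Glul and Slc17a7 lie at the top in every group, and the Vehicle point is the lowest of the 3 for most members between them and Grin3b.

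In Vehicle mice, 18 of the 32 tested members fell against Sham and 1 rose. Over all genes tested, 17.3% were called lower and 22.7% higher in this comparison (3032 and 3982 genes). Without TMM scaling these were 2299 and 4737 genes, with 16 members lower and 1 higher. The median log2 difference over the members was -0.55, beside 0.00 over all genes. Members whose 4 Vehicle values all lay below the 4 Sham values numbered 19, and 1 lay above (18.8% and 20.7% of all genes). At the thresholds in the methods of the study (absolute log2 fold change over 0.58, unadjusted p below 0.01), 12 members were lower, against 6.39% of all genes.

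**Figure D2:**
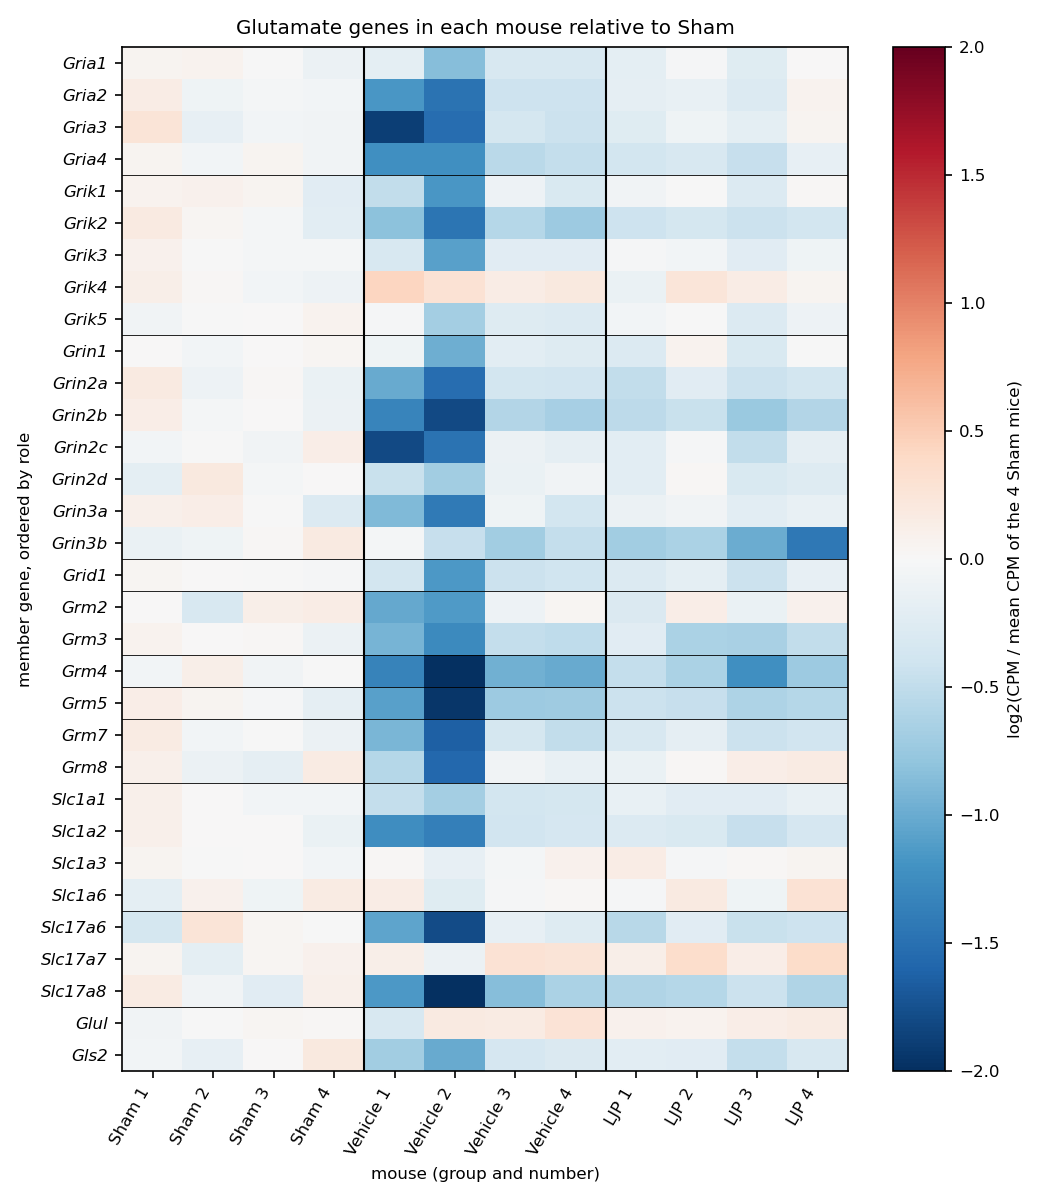
log2 ratio of each member's CPM in each of the 12 mice to the mean of the 4 Sham mice, with members in rows by role. Colours stop at -2 and 2, so lower values are drawn at -2; Vehicle mice 1 and 2 are the darkest columns, and the rows of Slc1a3, Slc1a6, Slc17a7 and Glul stay pale.

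AMPA receptors carry most fast excitatory current, and all 4 of their subunits fell in Vehicle mice. Gria2, whose subunit limits calcium entry through the channel, measured 551, 468, 483 and 477 CPM in Sham mice 1 to 4. In Vehicle mice it was 221, 177, 369.9 and 372 CPM, and in LJP mice 438, 446, 410.4 and 518 CPM. Every Vehicle mouse lay below every Sham and every LJP mouse, and Vehicle mice 1 and 2 were the lowest of all 12. The log2 difference of Vehicle from Sham was -0.80 ± 0.20 (SE; adjusted p = 0.00855).

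Gria3 had 211, 157, 169.7 and 168 CPM in Sham, 47.7, 61.3, 138 and 131 in Vehicle and 149.7, 167, 154 and 183 in LJP mice. Here too the Vehicle mice lay below both other groups, with Vehicle mice 1 and 2 far under the rest. Its fall of 0.90 ± 0.28 on the log2 scale (adjusted p = 0.0216) was the largest of the AMPA subunits with all mice. Without Vehicle mice 1 and 2 it was 0.40, smaller than that of Gria4 and Gria2. Gria4 fell from 76.9 ± 3.56 to 43.4 ± 12.3 CPM (log2 -0.83 ± 0.16, adjusted p = 0.00224). Gria1, the subunit of calcium-permeable AMPA receptors, fell least, from 445 ± 25.7 to 337 ± 62.8 CPM (log2 -0.40 ± 0.13, adjusted p = 0.0234). The Gria1 call was lost without Sham mouse 1, 2 or 3 (adjusted p 0.0521 to 0.0633), and the Gria3 call without Sham mouse 1 (adjusted p = 0.0655).

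The kainate receptor subunits were split. Grik2, a principal subunit, measured 59.7, 53.8, 51.1 and 45.6 CPM in Sham, 29.9, 19.0, 35.3 and 31.9 in Vehicle and 39.6, 41.4, 39.2 and 40.7 in LJP mice. The 3 groups did not overlap, with Vehicle lowest and LJP between. Grik2 fell by 0.86 ± 0.15 on the log2 scale in Vehicle (adjusted p = 0.00147), and Grik3 by 0.42 ± 0.15 (adjusted p = 0.0391). The Grik3 call was lost without any 1 of the 4 Sham mice or LJP mouse 1, 2 or 4 (adjusted p 0.0508 to 0.0976).

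Grik4, a subunit that needs a principal partner to form a channel, was the one member called higher. Its levels were 30.0, 28.3, 26.6 and 25.9 CPM in Sham, 37.4, 33.7, 30.7 and 31.6 in Vehicle and 25.3, 32.9, 30.6 and 28.6 in LJP mice. All Vehicle mice lay above all Sham mice, by a small margin at the edge. The difference was 0.27 ± 0.10 on the log2 scale (adjusted p = 0.045), and the call was lost without Sham mouse 2, 3 or 4, Vehicle mouse 1 or 2, or LJP mouse 3 or 4 (adjusted p 0.0587 to 0.119). Without Vehicle mice 1 and 2 together the value was 0.17 (adjusted p = 0.257). Grik1 (log2 -0.47, adjusted p = 0.0663) and Grik5 (log2 -0.29, adjusted p = 0.0636) did not pass. Zfp574, which overlaps Grik5 on the other strand, had 12.0% as many counts as Grik5, and whether the counting used strand is not given in the sources used here.

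NMDA receptors pass calcium and gate synaptic plasticity, and 3 of their 7 subunit genes fell in Vehicle mice. Grin2b, the subunit that predominates early in development and persists in forebrain, showed 808, 724, 747 and 682 CPM in Sham mice. It showed 296, 211, 491 and 467 CPM in Vehicle mice and 517, 544, 443 and 495 CPM in LJP mice. Sham lay above both I/R groups with no overlap, while LJP and Vehicle mice overlapped. The Vehicle level was 2.02-fold lower than Sham (log2 -1.01 ± 0.21, adjusted p = 0.00321).

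Grin2a, the subunit that predominates in the adult forebrain, measured 270.0, 221, 242 and 215 CPM in Sham and 118, 82.7, 184 and 182 in Vehicle mice, a fall of 0.74 ± 0.20 on the log2 scale (adjusted p = 0.0123). Grin3a, a subunit that reduces calcium permeability, fell by 0.61 ± 0.22 (adjusted p = 0.0422), although Vehicle mouse 3 (39.9 CPM) lay above Sham mouse 4 (34.9 CPM). Without Vehicle mice 1 and 2 the Grin3a difference was -0.22 and was not called (adjusted p = 0.145). With 1 mouse left out the Grin3a call held in 3 of 12 fits, those without Sham mouse 4, Vehicle mouse 3 or Vehicle mouse 4.

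The obligatory subunit Grin1 measured 735, 704, 735 and 749 CPM in Sham, 691, 371, 632 and 608 in Vehicle and 604, 766, 593 and 726 in LJP mice. All Vehicle mice lay below all Sham mice, and Vehicle mouse 2 was far under the others. Its difference of -0.34 ± 0.16 did not pass (adjusted p = 0.102). Its antisense neighbour Grin1os had 21.9% as many counts, so reads of this pair may not be separated. Grin2c, a subunit known from cerebellum and astrocytes, had 28.8 and 36.0 CPM in Vehicle mice 1 and 2 but 91.9 and 88.8 in Vehicle mice 3 and 4, near the 95.1 to 109.7 of Sham (log2 -0.71 ± 0.31, adjusted p = 0.0805). Grin2d (log2 -0.32, adjusted p = 0.0838) and Grin3b (log2 -0.40, adjusted p = 0.167) did not pass either.

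Grid1, a delta receptor subunit that links synapses rather than binding glutamate, had 94.9, 92.6, 92.0 and 90.6 CPM in Sham and 72.1, 41.6, 68.9 and 69.9 CPM in Vehicle mice. The Sham values were tight and lay well above the Vehicle values, of which mouse 2 was lowest. The fall was 0.55 ± 0.14 on the log2 scale (adjusted p = 0.00901).

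Among the metabotropic receptors, 4 of the 6 tested members fell. Grm5 (group I, coupled to calcium release) measured 224, 213, 201 and 180.1 CPM in Sham, 96.1, 53.1, 124 and 126 in Vehicle and 153, 149, 133 and 137 in LJP mice. The 3 groups did not overlap, in the order Sham, LJP, Vehicle. Its Vehicle level was 2.05-fold lower than Sham (log2 -1.04 ± 0.21, adjusted p = 0.00246).

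Grm4 (group III, a presynaptic brake on release) had the largest fall of all members. Its levels were 78.2, 88.4, 77.5 and 81.3 CPM in Sham, 32.2, 9.37, 41.8 and 40.6 in Vehicle and 58.6, 52.2, 34.9 and 49.3 in LJP mice. Vehicle mouse 2 held the lowest value, and every I/R mouse lay below every Sham mouse. The Vehicle difference was -1.40 ± 0.33 on the log2 scale (adjusted p = 0.00652) and -0.99 without Vehicle mice 1 and 2 (adjusted p = 0.000122). The group III receptor Grm7 (log2 -0.77 ± 0.21, adjusted p = 0.0109) and the group II receptor Grm3 of astrocytes and neurons (log2 -0.76 ± 0.16, adjusted p = 0.00298) also fell. Grm2 (log2 -0.46, adjusted p = 0.134) and Grm8 (log2 -0.48, adjusted p = 0.132) did not pass, and without Vehicle mice 1 and 2 their differences were -0.04 and -0.11.

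The membrane carriers that clear glutamate differed among themselves. Slc1a2 measured 3204, 3004, 2994 and 2729.6 CPM in Sham, 1255, 1153, 2296 and 2356 in Vehicle and 2458, 2418, 2158 and 2357 in LJP mice. Every I/R mouse lay below every Sham mouse, and Vehicle mice 1 and 2 had the lowest values. It fell by 0.76 ± 0.21 on the log2 scale in Vehicle (adjusted p = 0.0121), and by 0.36 without Vehicle mice 1 and 2 (adjusted p = 0.000706).

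Slc1a3, the other astrocyte carrier, had 438, 416, 421 and 404 CPM in Sham, 425, 376, 407 and 447 in Vehicle and 465, 413, 424 and 438 in LJP mice. The groups overlapped throughout. Its Vehicle difference was -0.02 ± 0.07 on the log2 scale (adjusted p = 0.845), and its sign changed with the scaling. Slc1a1, the carrier of neurons known as EAAC1, fell from 106 ± 5.65 to 77.1 ± 7.88 CPM with the smallest p of all members (log2 -0.46 ± 0.08, adjusted p = 0.0011). Slc1a6, a carrier of cerebellar Purkinje cells, was low (8.95 ± 0.989 CPM in Sham) and differed by -0.02 ± 0.13 (adjusted p = 0.932), with a sign that also changed with the scaling.

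Of the vesicular carriers, Slc17a8 (VGLUT3, found in few neurons) fell, with 7.55, 6.48, 5.81 and 7.26 CPM in Sham, 3.04, 1.5, 3.77 and 4.36 in Vehicle and 4.45, 4.55, 5.0 and 4.46 in LJP mice. Vehicle lay lowest, and no I/R mouse reached the Sham range. The fall in Vehicle was 1.10 ± 0.25 on the log2 scale (adjusted p = 0.00533). Slc17a7, in contrast, had 1604, 1361, 1599.9 and 1637 CPM in Sham, 1689, 1426, 1885 and 1849 in Vehicle and 1675, 1984, 1707 and 1999 in LJP mice. Sham and Vehicle overlapped, and the difference was 0.14 ± 0.11 on the log2 scale (adjusted p = 0.316). Slc17a6 (VGLUT2, typical of subcortical neurons) had 9.94 and 5.93 CPM in Vehicle mice 1 and 2 against 18.4 and 17.2 in Vehicle mice 3 and 4 and 16.1 to 24.6 in Sham (log2 -0.68 ± 0.28, adjusted p = 0.0676).

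In the glutamate-glutamine cycle, Gls2, a glutaminase that makes glutamate from glutamine, fell from 24.2 ± 2.58 to 16.5 ± 3.70 CPM (log2 -0.55 ± 0.15, adjusted p = 0.0116). Its neighbour Spryd4 lies on the opposite strand and had 30.0% as many counts. Glul measured 1572, 1637, 1685 and 1671 CPM in Sham, 1318, 1854, 1844 and 1983 in Vehicle and 1751, 1732, 1796 and 1838 in LJP mice. Vehicle mouse 1 lay below all Sham mice and the other Vehicle mice above them. The mean difference was 0.09 ± 0.11 on the log2 scale (adjusted p = 0.533), but without Vehicle mice 1 and 2 Glul was called higher (log2 0.22, adjusted p = 0.00656), as was Slc17a7 (log2 0.26, adjusted p = 0.0275).

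**Figure D3:**
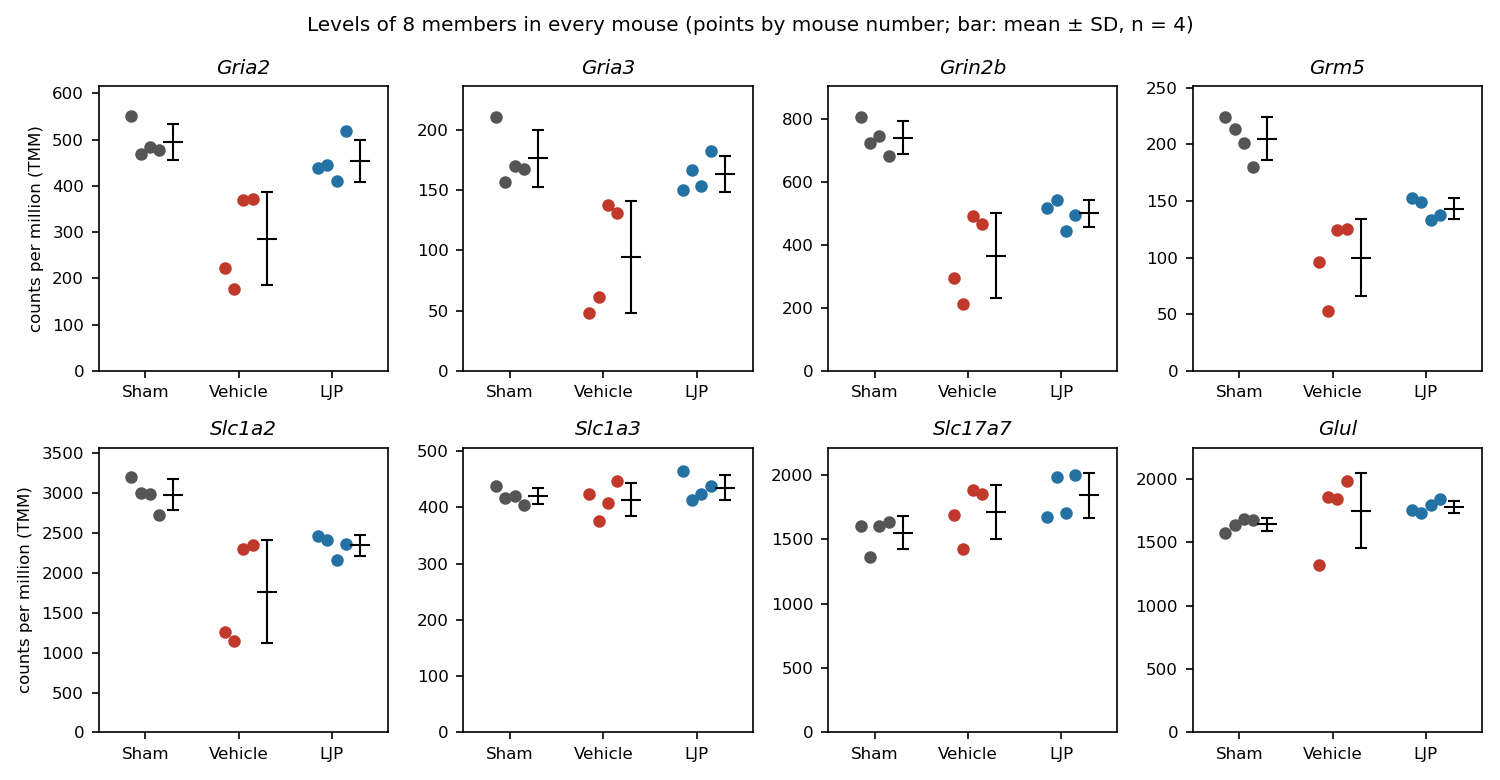
CPM of 8 members in every mouse, points in order of mouse number, with mean ± SD beside each group (n = 4, axes from 0). Vehicle mice 1 and 2 are the low points for Gria2, Gria3, Grin2b and Slc1a2, whereas Slc1a3 and Slc17a7 overlap between Sham and Vehicle.

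Vehicle mouse 2 had the lowest level of its group for 27 of the 32 members. Relative to the Sham mean, the median member stood at log2 -0.75, -1.20, -0.32 and -0.33 in Vehicle mice 1 to 4 and at -0.22, -0.12, -0.31 and -0.16 in LJP mice 1 to 4. Without Vehicle mice 1 and 2, the median Vehicle difference was -0.32 in place of -0.55, with 18 members called lower, 17 of them the same, and 2 called higher. In that fit 14% of all genes were lower and 15.7% higher. Most differences shrank, and all 4 AMPA subunits were still called, in another order. Gria4 differed by -0.51, Gria2 by -0.42, Gria3 by -0.40 and Gria1 by -0.33 on the log2 scale (adjusted p 0.000224 to 0.01).

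Of the other receptors, Grin2b differed by -0.63 without these mice, Grin2a by -0.38, Grik2 by -0.65, Grik3 by -0.23 and Grid1 by -0.42, and all 5 were called lower. So were the metabotropic receptors Grm5 (log2 -0.72), Grm3 (log2 -0.50) and Grm7 (log2 -0.43), and Grik5 was called here but not with all mice (log2 -0.27, adjusted p = 0.00765). Grin2c differed by -0.16 (adjusted p = 0.265), Grin1 by -0.24 (adjusted p = 0.0517), Grik1 by -0.20, Grin2d by -0.11 and Grin3b by -0.59, none of them called. Among carriers and enzymes, Slc17a8 (log2 -0.74), Slc1a1 (log2 -0.36) and Gls2 (log2 -0.32) were called lower. Slc17a6 (log2 -0.21, adjusted p = 0.291), Slc1a3 (log2 0.021) and Slc1a6 (log2 -0.0052) were not.

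Marker lists of the cell types in a hemisphere differed in how they stood in Vehicle mice. Striatal neuron markers summed to 2463 to 2839.7 CPM in Sham, 207 to 1131 in Vehicle and 923 to 1664 in LJP mice, and 7 of 7 fell in Vehicle (median log2 -2.04). Of 12 pan-neuronal markers 6 fell (median -0.39), and of 6 excitatory cortical neuron markers 2 fell (median -0.53). Microglia and macrophage markers summed to 291 to 299 CPM in Sham, 571 to 932 in Vehicle and 531 to 964 in LJP, and 7 of 8 rose in Vehicle. Astrocyte markers, of which 2 of 8 rose and 1 fell, had a median of 0.22 and a range of -0.24 to 3.87. They summed to 1387 to 1556 CPM in Sham, 2747.5 to 4272 in Vehicle and 2632 to 3654 in LJP mice. Of 5 endothelial markers 3 rose (median 2.00, and 1.06 without Vehicle mice 1 and 2), and all 5 together summed to 187 to 207 CPM in Sham mice, to 616 and 1269.5 CPM in Vehicle mice 1 and 2 and to 268 and 323 in Vehicle mice 3 and 4. Of 6 inhibitory neuron markers 0 were called by edgeR or DESeq2 and 0 had an unadjusted p below 0.05 (median -0.46), and their sum was 356 CPM in Vehicle mouse 2 against 883 to 1145 in the other Vehicle mice. When Vehicle mice 1 and 2 were left out, 3 of these 6 were called lower. Of 5 choroid plexus markers 0 were called by either tool, with 0 at an unadjusted p below 0.05, and their sum ranged from 20.8 to 870.4 CPM within Sham alone. The lists of thalamic neuron (median -0.04), oligodendrocyte (0.08) and oligodendrocyte precursor markers (0.25) had 1 member each called higher, and cerebellar neuron markers (0.15) had 1 higher and 1 lower. Of 6 infiltrating myeloid cell markers, 2 passed the filter of edgeR and both were called higher (median 3.47), and DESeq2, run without that filter, called 6 higher. Without Vehicle mice 1 and 2, the median was -1.76 for striatal, -0.19 for pan-neuronal, -0.14 for excitatory cortical and -0.23 for inhibitory neuron markers. In that fit 5 of 8 astrocyte markers were called higher and 1 lower (median 0.39). Of 4 oligodendrocyte precursor markers 3 were called higher and 0 lower (median 0.43). The part of these markers in the members' differences was not tested.

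The other genes of glutamate signalling, a list of 56 that excludes the members, had 30 lower, 8 higher and a median of -0.43 in Vehicle mice. These were 27, 8 and -0.19 without Vehicle mice 1 and 2. Scaffolds that anchor glutamate receptors had 10 of 13 lower, AMPA auxiliary subunits 10 of 16, and kainate auxiliary subunits 2 of 2, whereas 6 of 9 carriers of glutamine, cystine or neutral amino acids were higher. The 3 with the smallest p among those that fell were Shank3, a postsynaptic scaffold (log2 -0.97, adjusted p = 0.000377), Ppp3ca, a catalytic subunit of calcineurin (log2 -0.85, adjusted p = 0.000541), and Neto2, a kainate receptor auxiliary subunit (log2 -1.26, adjusted p = 0.000627). Those that rose most clearly were the scaffold Homer3 (log2 1.06, adjusted p = 0.000378), Slc3a2, the heavy chain shared by several amino acid exchangers (log2 1.02, adjusted p = 0.0007), and the neutral amino acid carrier Slc1a5 (log2 2.16, adjusted p = 0.00244).

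LJP was compared with Vehicle to ask whether treatment, begun before surgery, moved these genes after I/R. By edgeR, 0 members were called in either direction, in a comparison in which 0% of all genes were called higher and 0.0228% lower. The median log2 difference was 0.35 beside -0.0017 over all genes, and 30 of 32 members had a value above 0. At an unadjusted p below 0.05 there were 11 members, 10 of them higher, beside 29.7% of all genes in either direction and 12.3% higher. DESeq2 called 5 members higher (Gria2, Gria3, Gria4, Grik2 and Slc1a1) and 3.81% of all genes. Members with all 4 LJP mice above all 4 Vehicle mice numbered 8 (5.77% of all genes), and none lay below (5.91% of all genes). These were Gria2, Gria3, Gria4, Grik2, Grik3, Grm5, Slc1a1 and Slc17a8.

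The largest of these differences was that of Gria3 (log2 0.79 ± 0.28, adjusted p = 0.0972), and the smallest adjusted p was that of Slc1a1 (log2 0.27 ± 0.08, adjusted p = 0.0707). Gria2 differed by 0.67 ± 0.20 (adjusted p = 0.0735), and it was the 1 member past the thresholds in the methods of the study, which 1.07% of all genes passed in this direction. Gria4 stood 0.50 ± 0.16 and Grik2 0.47 ± 0.15 higher in LJP (adjusted p = 0.0814 and 0.0844). Each of these values is relative to the Vehicle group, whose mice 1 and 2 were low for all 5.

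Without Vehicle mice 1 and 2, the median LJP difference was 0.09 and 0 members were called. Gria2 then differed by 0.29 (adjusted p = 0.194), Gria3 by 0.28 (adjusted p = 0.281), Grm4 by 0.24 (adjusted p = 0.463) and Slc1a2 by 0.012 (adjusted p = 0.959). Grik2 differed by 0.26, Grm5 by 0.19, Gria4 and Slc17a8 by 0.18, Slc1a1 by 0.16 and Grik3 by 0.13, and the 32 members ranged from -0.31 (Grin3b) to 0.29 (Gria2). Leaving out 1 Vehicle mouse at a time gave a median of 0.31 without mouse 1 and 0.19 without mouse 2, with 0 members called in either. Leaving out Vehicle mouse 3 gave 9 members called higher (8.46% of all genes) and a median of 0.51. Leaving out Vehicle mouse 4 gave 4 members (3.35% of all genes) and a median of 0.45. With all mice, both members with a value below 0 were uncalled: Grik4 (log2 -0.19 ± 0.10, adjusted p = 0.218) and Grin3b (log2 -0.50 ± 0.23, adjusted p = 0.161).

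By role, the median log2 differences of LJP from Vehicle were 0.58 for the AMPA subunits, 0.33 for the kainate and 0.37 for the NMDA subunits, 0.53 for group III metabotropic receptors, 0.19 for membrane carriers and 0.28 for vesicular carriers. The same medians were 0.24, 0.13, -0.0015, 0.15, 0.058 and -0.022 without Vehicle mice 1 and 2. Striatal neuron markers had a median of 1.04, pan-neuronal markers of 0.22, and endothelial markers of -1.54 with all mice. Without Vehicle mice 1 and 2 these were 0.70, 0.03 and -0.61. With all mice it was 0.46 for excitatory cortical, 0.26 for inhibitory, -0.34 for thalamic and 0.03 for cerebellar neuron markers. The astrocyte, microglia and macrophage, oligodendrocyte and precursor medians were 0.07, -0.03, -0.15 and 0.05. Infiltrating myeloid cell markers had -1.44 (2 tested) and choroid plexus markers -0.88. DESeq2 called 4 endothelial and 2 myeloid markers lower, 2 striatal markers higher, and at most 1 in any other list. Whether the lists bear on the members was not tested. Among the 56 other glutamate genes 0 were called by edgeR (median 0.30, and 0.075 without Vehicle mice 1 and 2). Of the 56, 32 had an unadjusted p below 0.05, beside 29.7% of all genes. DESeq2 called 3 higher and 5 lower, beside 667 and 1640 of all genes. The smallest edgeR p-values belonged to Slc3a2 (log2 -0.68, adjusted p = 0.0678) and Slc7a11, the light chain of the cystine-glutamate exchanger (log2 -1.64, adjusted p = 0.0678). Slc7a11 had a mean of 102 ± 80.9 CPM in Vehicle, 32.9 ± 5.34 in LJP and 30.4 ± 3.74 in Sham mice.

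**Figure D4:**
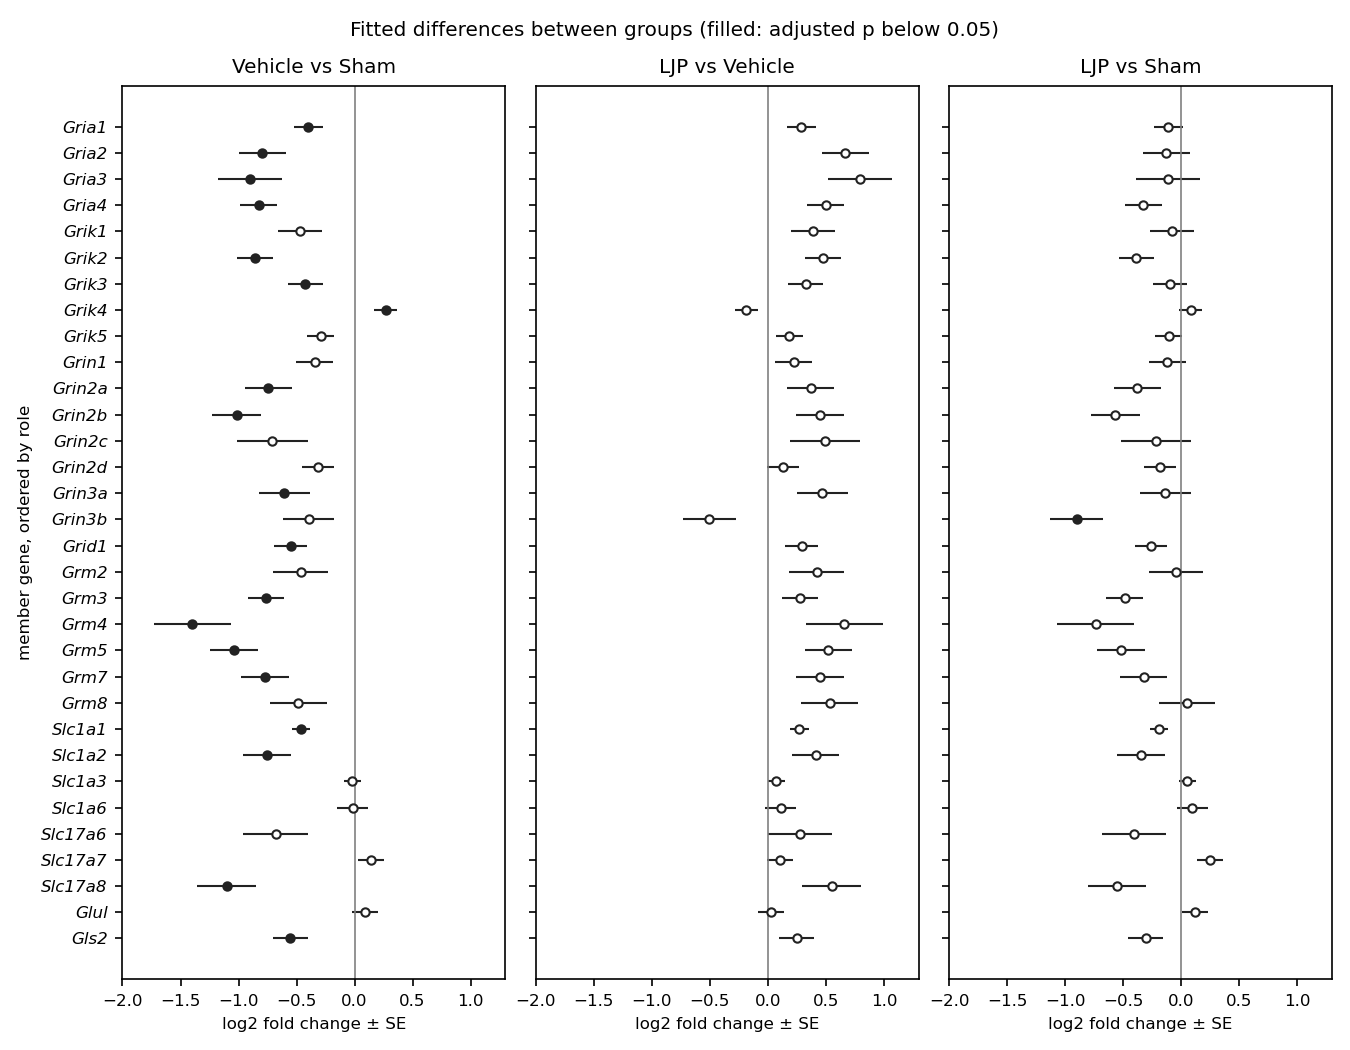
Fitted log2 fold change ± SE of each tested member in the 3 comparisons, with filled points for adjusted p below 0.05. Filled points number 19 for Vehicle against Sham, 0 for LJP against Vehicle and 1, Grin3b, for LJP against Sham.

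LJP and Sham were compared to see how far the treated hemispheres stood from uninjured ones; both groups also enter the comparisons above. In the fit of all 12 mice, 1 member was lower and 0 were higher, against 0.9% and 3.85% of all genes, and 9 members had an unadjusted p below 0.05 (18.8% of all genes). The median log2 difference was -0.19. This fit shares 1 estimate of the spread over the 3 groups, so the spread of the Vehicle mice enters these p-values. The called member was Grin3b, an NMDA subunit known from motor neurons, with 43, 47, 50 and 59 raw counts in Sham, 58, 46, 31 and 36 in Vehicle and 37, 34, 25 and 18 in LJP mice. All LJP mice lay below all Sham mice, and the difference was -0.90 ± 0.23 on the log2 scale (adjusted p = 0.0406). Tmem259 overlaps Grin3b on the opposite strand and held 35278 counts over the 12 mice against 484, so this value is uncertain if the counting ignored strand. The count of 1 became 0 without any 1 of the 4 Sham mice, Vehicle mouse 4 or LJP mouse 1, 3 or 4.

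When only the LJP and Sham mice were fitted, 15 members were lower and 1 was higher, beside 11.8% and 12.1% of all genes. The same 16 were called when Vehicle mice 1 and 2 were left out, beside 12% lower and 12.3% higher. Without Vehicle mouse 2 alone, 9 were lower (5.5% of all genes). The SE of the Slc1a2 difference was 0.20 in the fit of all 12 mice and 0.05 in that of LJP and Sham mice only. Members with all LJP mice below all Sham mice numbered 14 (12% of all genes), and 2, Slc17a7 and Glul, lay above (12.9%). In the fit of these 2 groups Grin2b differed by -0.57 ± 0.07 (adjusted p = 7.89e-05), Grm5 by -0.52 ± 0.07 (adjusted p = 0.000178), Grm4 by -0.74 ± 0.11 (adjusted p = 0.000504), Slc1a2 by -0.35 ± 0.05 (adjusted p = 0.000524) and Slc17a7 by 0.24 ± 0.07 (adjusted p = 0.0254). Gria2 and Gria3 were not among them, with differences of -0.13 and -0.11 in the fit of all mice. Of the 56 other genes, Cacng5, an AMPA auxiliary subunit, was higher (log2 0.46, adjusted p = 0.0425) and Shank3 lower (log2 -0.59, adjusted p = 0.0235) in LJP than in Sham in the fit of all 12 mice. DESeq2 called 3 of the 56 higher and 4 lower, beside 1079 and 375 of all genes. Leaving out Vehicle mice 1 and 2 gave 6 higher and 26 lower, beside 12.3% and 12% of all genes. Among cell type markers, the median in the fit of all 12 mice was -1.06 for striatal and -0.08 for pan-neuronal markers. It was 0.30 for astrocyte and 1.26 for microglia and macrophage markers. Whether these markers bear on the members was not tested.

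Ratios of 2 members within a mouse do not depend on scaling between libraries. Across 8 ratios and 3 comparisons, 24 exact two-sided permutation tests were run, of which 10 reached the smallest p that 4 against 4 mice allow (0.0286, adjusted p = 0.0686), so none passed an adjusted 0.05. The log2 ratio of Slc1a2 to Slc1a3 was 2.87, 2.85, 2.83 and 2.76 in Sham, 1.56, 1.61, 2.50 and 2.40 in Vehicle and 2.40, 2.55, 2.35 and 2.43 in LJP mice. Every I/R mouse lay below every Sham mouse, while Vehicle mice 3 and 4 lay within the LJP range. The Vehicle mean was 0.81 below Sham and the LJP mean 0.40 below.

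The log2 ratio of Slc17a6 to Slc17a7 was -6.63, -5.79, -6.24 and -6.32 in Sham, -7.41, -7.90, -6.68 and -6.75 in Vehicle and -6.90, -6.82, -6.81 and -7.01 in LJP mice. Again no I/R mouse reached the Sham range. Glul to Gls2 was 0.65 higher in Vehicle and 0.42 higher in LJP than in Sham, without overlap in either. Grin2b to Grin2a was 0.28 lower in Vehicle than in Sham without overlap, and in all 4 Vehicle mice alike (1.32, 1.35, 1.42 and 1.36 against 1.58 to 1.71).

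The ratio of Gria2 to Gria1 split the Vehicle group. Its log2 value was -0.82 and -0.47 in Vehicle mice 1 and 2 but 0.05 and 0.07 in Vehicle mice 3 and 4, with 0.01 to 0.26 in Sham and 0.02 to 0.21 in LJP mice. Gria4 to Gria2 was lower in LJP than in both other groups without overlap, by 0.20 against each. Grm3 to Grm5 was 0.31 higher in Vehicle than in Sham without overlap.

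**Figure D5:**
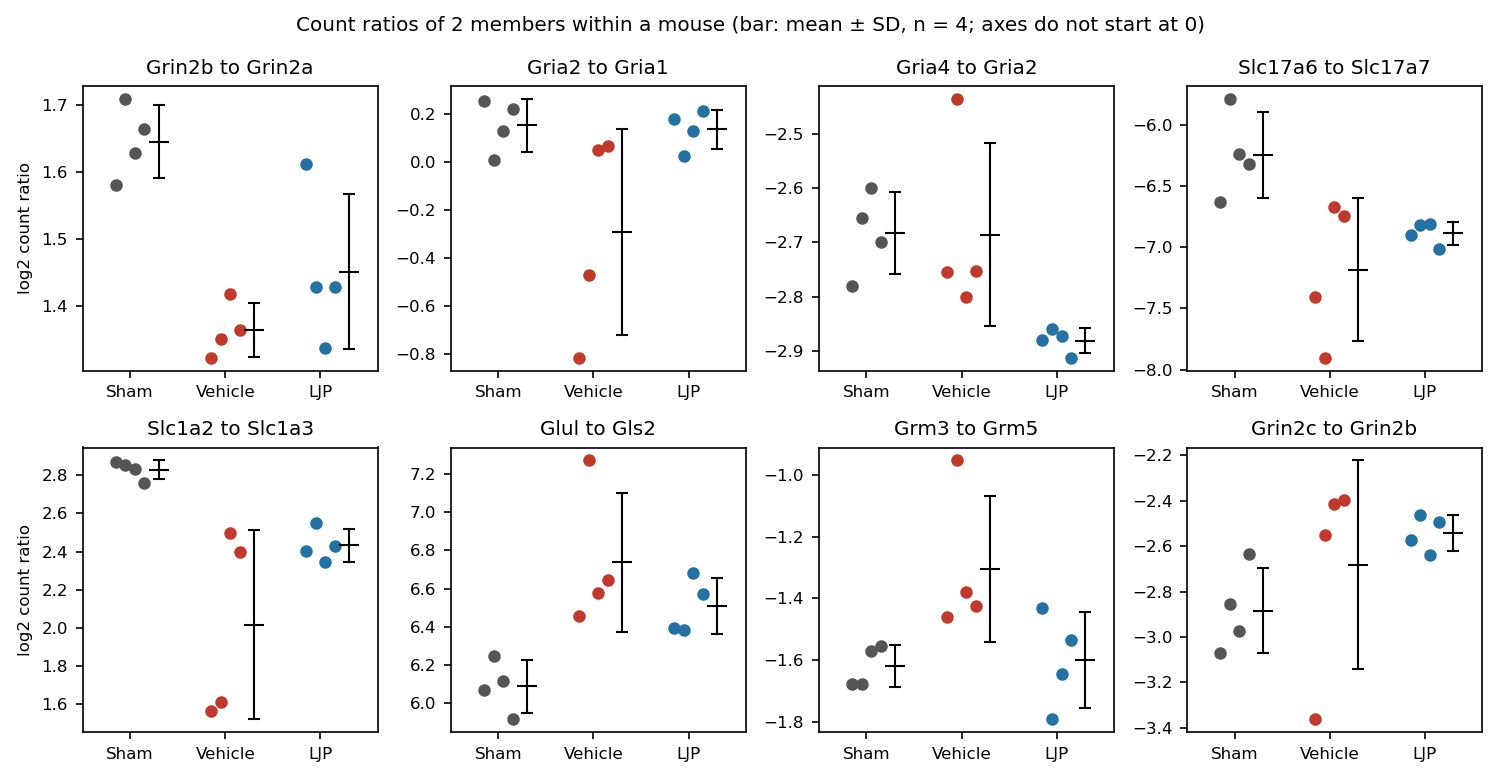
log2 count ratio of 8 pairs of members in each mouse, with mean ± SD beside each group (n = 4, axes not from 0). Vehicle mice 1 and 2 lie apart from Vehicle mice 3 and 4 for Slc1a2 to Slc1a3 and Gria2 to Gria1, and all I/R mice lie below Sham for Slc1a2 to Slc1a3 and Slc17a6 to Slc17a7.

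Members with long gene models tended to have lower values in Vehicle mice. Across the 32 members Spearman's rho between length and the log2 difference was -0.41 for Vehicle against Sham and 0.44 for LJP against Vehicle, beside -0.24 and 0.22 across all genes tested. Members share libraries, and their counts rise with length, so these are descriptions only. The 16 members longer than the median of 6392 bases had a median Vehicle difference of -0.73 and the other 16 of -0.46.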

How the data were processed

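The authors deposited 1 table of raw read counts per gene for 12 mice (3 groups of 4, grouped by the labels), with gene positions and lengths; it was used as deposited. The submitters' processing notes list featureCounts, DESeq2 and the builds GRCm39 and mm10. Gene positions matched RefSeq GRCm38.p6 for 39730 of 39756 genes. The aligner, strand setting and treatment of shared reads are not given in the sources used here. Genes were filtered with filterByExpr, scaled by TMM and fitted for all 12 mice together with edgeR 4.0.16 (glmQLFit and glmQLFTest, R 4.3.3), with p-values adjusted by Benjamini-Hochberg over 17558 genes. The p-values measure the spread between mice, which the labels give as separate samples. In the fit of all 12 mice this spread is 1 estimate shared by the 3 groups, Vehicle included. Count ratios (0.5 added to each count) were tested by exact permutation (scipy 1.17.1). The pipeline was tested on simulated data. Every member is named; of the other glutamate genes, the 3 with the smallest p in each direction are named among those called, or the 2 with the smallest p where none was. The members and gene lists were chosen with earlier results of these data known. Alternatives were other scalings, no filter, 2 groups only, a replicate block, other thresholds, DESeq2 1.42.0, and leaving out each mouse. Leaving out Vehicle mice 1 and 2 together was chosen after seeing the data. Total counts of 17960353 to 22216315 per mouse put 3 counts at 0.129 to 0.173 CPM.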

Additional observations from a re-analysis of the deposited data

Results flagged for a closer look

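In 4 of the 96 sets of 4 mice (32 members in 3 groups), 1 mouse lay far from the other mice of its group, measured as the gap to its nearest neighbour divided by the whole range of the group. Chance flags about 1 set in 20. Vehicle mouse 2 was the lowest of its group by this measure for Grid1 (0.918) and for Grik3 (0.899). Sham mouse 4 was lowest for Grik1 (0.879), and Sham mouse 2 was lowest for Slc17a7 (0.875).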

How the results depend on the processing

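Of 2040 alternative values for single members and ratios, 1898 kept their direction and side of the threshold, 51 lost a call, 70 gained one and 21 changed sign without a call. For Vehicle against Sham, members called lower numbered 10 at adjusted p below 0.01 and 14 to 22 when 1 mouse was left out, and members called higher 0 with no filter, 2 groups only, the replicate block, adjusted p below 0.01 or the study's thresholds, 2 without Vehicle mice 1 and 2, and 0 to 1 with 1 mouse left out. With 2 groups only 14 were lower, without Gria1, Gria3, Grik3 and Grin3a (adjusted p 0.0582 to 0.102). Grik3 also lost its call without TMM scaling (adjusted p = 0.0639) and with no filter (0.0507), and Grin3a without TMM scaling (0.0601) and with the replicate block (0.06). Over all genes, 7014 calls became 3874 at adjusted p below 0.01 and 3807 at the study's thresholds (5285 to 8200 with 1 mouse left out). For LJP against Vehicle, members called higher numbered 5 with DESeq2, 1 at the study's thresholds and 0 to 9 with 1 mouse left out. Over all genes, 4 calls became 593 with no filter, 2 with 2 groups only, 2 with the replicate block, 8 without Vehicle mice 1 and 2, 2307 with DESeq2, 1223 at the study's thresholds and 3 to 3857 with 1 mouse left out, the highest without Vehicle mouse 3, followed by 2095 without Vehicle mouse 4. For LJP against Sham, members called lower numbered 15 with 2 groups only and without Vehicle mice 1 and 2 (1 higher in both), 2 with DESeq2, 0 without TMM scaling, with no filter, with the replicate block or at adjusted p below 0.01, and 0 to 9 with 1 mouse left out. Over all genes, 834 calls became 4043 with 2 groups only, 464 with the replicate block, 4389 without Vehicle mice 1 and 2, 1454 with DESeq2, 321 at adjusted p below 0.01 and 393 to 2357 with 1 mouse left out. The cause was not tested, except that fewer mice, a spread shared by fewer groups and stricter thresholds are part of the alternatives themselves.

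Signs changed for Slc1a3 in Vehicle against Sham (0.056 without TMM scaling, 0.021 without Vehicle mice 1 and 2, -0.061 to 0.017 with 1 mouse left out) and for Slc1a6 (0.059 without TMM scaling, -0.077 to 0.046 with 1 mouse left out). In LJP against Vehicle, leaving out Vehicle mice 1 and 2 gave -0.0015 for Grin2a, -0.070 for Grin2c, -0.083 for Grin2d, -0.017 for Grm2, -0.20 for Slc17a6, -0.022 for Slc17a7 and -0.11 for Glul, and Glul ranged from -0.090 to 0.091 with 1 mouse left out. In LJP against Sham, Grm2 was 0.0093 without TMM scaling and -0.14 to 0.031 with 1 mouse left out, and Grm8 was -0.00038 to 0.11. Mice with the same number did not deviate together (1 of 12 correlations above 0.1, range -0.32 to 0.11), so the replicate numbers were not taken as pairs.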
